A study of Rattus norvegicus with 12 samples.

Results

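Peptide receptors of the rat hippocampus were examined in 6 RNA libraries: 3 from the hippocampus of male rats kept in normoxia for 4 weeks (control) and 3 from male rats exposed for 4 weeks to chronic intermittent hypoxia (CIH), in which oxygen is lowered in repeated cycles, as in sleep apnoea. The 10 genes were chosen by symbol out of 26949 genes in the deposited table: the galanin receptor genes Galr1 and Galr2, the glucagon-like peptide 1 receptor gene Glp1r, the corticotropin-releasing hormone receptor gene Crhr1, the neuropeptide Y receptor genes Npy1r, Npy2r and Npy5r, the somatostatin receptor genes Sstr1 and Sstr2, and the PACAP receptor gene Adcyap1r1. The set was proposed because Galr1 and Glp1r had few counts in CIH, so the differences between CIH and control given here describe values that were used in the choice and test nothing. All 10 genes were found, and all 10 passed the filter on low counts. Glp1r passed that filter only through the control libraries, where it was higher. The labels give no strain or age, and leave it unstated if libraries within a group are from different animals, so any p-value measures only the spread between these libraries.

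All of these genes encode receptors with 7 membrane-spanning segments that act through G proteins. Galanin, neuropeptide Y and somatostatin are released largely by interneurons and by fibres entering the hippocampus, and most of their receptors couple to Gi/o proteins, which lower cyclic AMP, open inwardly rectifying potassium channels and reduce transmitter release. Galr2 also couples to Gq. The receptors for glucagon-like peptide 1, corticotropin-releasing hormone and PACAP belong to the secretin receptor class, couple mainly to Gs and raise cyclic AMP. Several of the genes are known to differ between the dorsal and the ventral pole of the hippocampus and among its fields, so the share of each region in a sample bears on their level in whole tissue. In such bulk samples, fewer cells of a type and less RNA per cell cannot be told apart.

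The promoter windows of the genes with the widest differences between libraries, Galr1 and Npy2r, and of Glp1r, the gene whose groups did not overlap, are shown because these genes are the ones the results turn on. They are RefSeq sequences of the GRCr8 build, each holding 250 bases before and 50 bases after the annotated start of the gene, 5′ to 3′ on the gene's own strand. The Galr1 window lies at chr18:78062310-78062609 on the minus strand, the Npy2r window at chr2:170203051-170203350 on the minus strand and the Glp1r window at chr20:8973143-8973442 on the plus strand. Capitals mark the GC box GGGCGG or its reverse complement, a motif bound by Sp1-type factors.
Galr1: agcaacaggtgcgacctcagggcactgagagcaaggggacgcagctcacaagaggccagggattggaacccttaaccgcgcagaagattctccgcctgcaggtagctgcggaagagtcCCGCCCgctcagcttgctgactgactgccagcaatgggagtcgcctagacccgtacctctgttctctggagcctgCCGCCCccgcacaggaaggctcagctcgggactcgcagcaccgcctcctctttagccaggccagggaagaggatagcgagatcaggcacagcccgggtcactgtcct
Npy2r: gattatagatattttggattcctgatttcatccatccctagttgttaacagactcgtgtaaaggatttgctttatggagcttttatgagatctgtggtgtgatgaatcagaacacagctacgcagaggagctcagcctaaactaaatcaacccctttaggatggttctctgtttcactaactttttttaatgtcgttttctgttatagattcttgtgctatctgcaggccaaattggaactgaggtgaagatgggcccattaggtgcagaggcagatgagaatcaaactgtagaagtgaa
Glp1r: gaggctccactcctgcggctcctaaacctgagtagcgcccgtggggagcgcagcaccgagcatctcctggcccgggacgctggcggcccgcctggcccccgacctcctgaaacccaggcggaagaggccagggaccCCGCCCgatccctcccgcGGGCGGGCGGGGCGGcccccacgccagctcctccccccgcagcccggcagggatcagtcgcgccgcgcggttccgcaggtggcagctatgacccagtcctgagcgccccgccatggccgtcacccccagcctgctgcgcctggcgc

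The windows differ in base composition. The Glp1r window is 76.0% G or C, with 32 CpG dinucleotides and 4 GC boxes, some of which overlap each other. The Galr1 window is 63.0% G or C, with 17 CpG and 2 GC boxes, and the Npy2r window is 40.0% G or C, with 3 CpG and 0 GC boxes. The GC box, sought on both strands, was in 33.1% of 33469 windows of this length from 27457 genes, whose median was 7 CpG. Of the 10 genes, all of which had a window, only Sstr2 carried the cyclic AMP response element TGACGTCA and the hypoxia response element core ACGTG, once each. These letters were in 1.83% and 19.3% of all windows, on either strand. A match describes the letters of a window and not a bound site.

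Levels per length were compared in control, as deposited TPM (a share of all transcripts, corrected for gene length), as a description, since the order of levels was not used to choose the genes. Adcyap1r1 (gene ID 24167), the receptor for the neuropeptide PACAP, was the most abundant at 359 ± 79.5 TPM (SD, n = 3). Its lowest control library, at 306.41 TPM, lay above the highest value of any other receptor. Sstr2 followed at 17.8 ± 1.36 TPM, then Sstr1 at 17.3 ± 11.3 TPM, Npy2r at 13.7 ± 12.04 TPM, Npy1r at 10.3 ± 1.1998 TPM and Galr1 at 7.18 ± 5.79 TPM. Crhr1 stood at 4.11 ± 2.17 TPM, Npy5r at 4.03 ± 1.30 TPM, Galr2 at 2.48 ± 1.61 TPM and Glp1r last at 0.597 ± 0.166 TPM. Of the 9 pairs of neighbours in this order, only 2 did not overlap over the control libraries, Adcyap1r1 over Sstr2 and Galr2 over Glp1r. The 7 pairs between them overlapped, so 3 libraries do not resolve those neighbours. Some genes further apart in the order did not overlap. Sstr2, at 16.61 to 19.26 TPM in control, lay above Npy1r, at 9 to 11.37 TPM. Npy1r lay above Crhr1, Npy5r and Galr2, whose highest control values were 5.95, 5.53 and 4.22 TPM. Without control replicate 1, which held low values of Sstr1, Npy2r, Galr1 and Crhr1, 5 of the 9 pairs did not overlap.

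**Figure D1:**
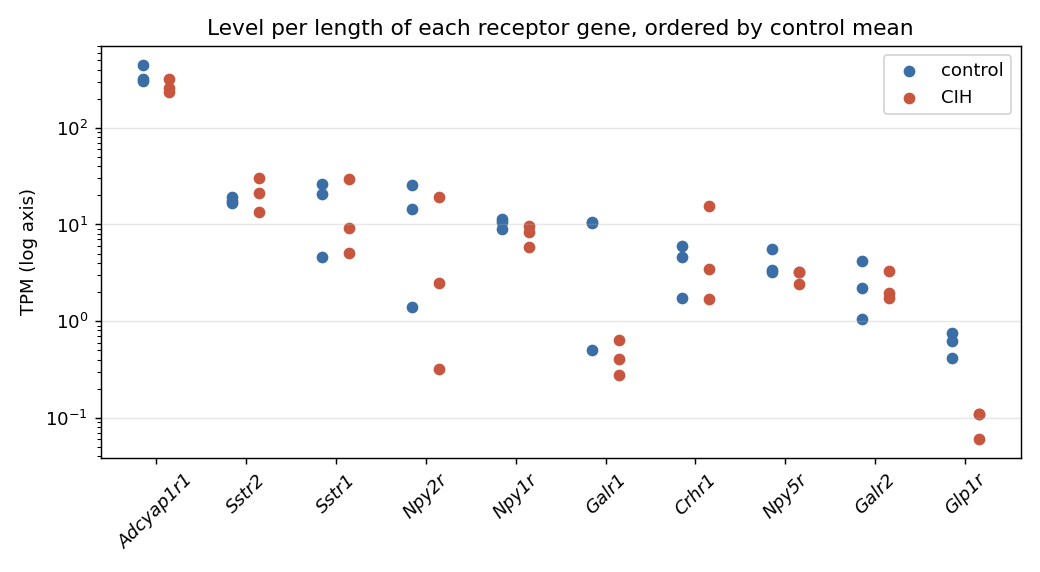
Level per length (TPM, log axis) of the 10 receptor genes in the 3 control libraries (blue) and the 3 CIH libraries (red), ordered by the control mean, 1 point per library. Adcyap1r1 stands above all others and Glp1r has the lowest control mean, with control points (0.42 to 0.75 TPM) among the lowest points of Galr1 and Npy2r. Sstr1, Npy2r, Galr1 and Crhr1 spread widely between the control libraries.

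The first question was how the galanin receptors differ between CIH and control. Galr1 (gene ID 50577), the Gi/o-coupled galanin receptor, had 11, 236 and 240 estimated counts in control replicates 1, 2 and 3, and 8, 15 and 6 in CIH replicates 1, 2 and 3. Control replicates 2 and 3 were high, and control replicate 1 was as low as the CIH libraries. Scaled to the TMM-adjusted library totals (CPM), control replicate 1 stood at 0.546 CPM, inside the CIH range of 0.303 to 0.711 CPM, so the groups overlapped. The other controls stood at 11.8 and 11.1 CPM. The group means were 7.81 ± 6.30 (control) and 0.488 ± 0.207 CPM (CIH; SD, n = 3 each), and the log2 fold change was -3.98 (SE 1.06). Leaving out 1 library at a time gave values from -3.57 (SE 1.13, without control replicate 2) to -4.52 (SE 0.33, without control replicate 1), the other 4 lying between them with SE of 1.17 to 1.39. The low Galr1 level was thus found in 4 libraries, 1 of them a control.

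Across all 17935 genes tested, control replicates 2 and 3 both stood at least 5 times above each of the other 4 libraries in 3 genes, or 0.0167%. These genes were Galr1, Vgll3 and LOC100360117, and the pattern was chosen after the Galr1 values were seen. By the root mean square difference of log2 CPM, centred on each gene's mean over the 6 libraries, the genes most like Galr1 among 16374 compared were Vgll3 at 0.41, Dlk1 at 0.78, Mx1 at 0.82 and Trhr at 0.98. Vgll3, a transcription cofactor gene, had 31, 444 and 549 counts in control and 23, 73 and 13 in CIH. Trhr, the receptor for thyrotropin-releasing hormone, had 27, 183 and 189 counts in control and 39, 54 and 24 in CIH. In each of these genes control replicates 2 and 3 were the highest libraries.

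Galr2 (gene ID 29234), the galanin receptor that also couples to Gq, did not follow Galr1. It had 55, 14 and 30 counts in control and 22, 24 and 42 in CIH, with its lowest value in control replicate 2, where Galr1 was highest. The means were 1.61 ± 1.03 (control) and 1.498 ± 0.544 CPM (CIH; SD, n = 3 each), and the log2 fold change was -0.10 (SE 0.52). Its sign turned under several settings, among them the replicate number as a block (0.04). The estimated counts of Galr2 were not whole in any of the 6 libraries, as when reads are divided between genes, so its level is uncertain. The ligand gene Gal had only 9, 9 and 5 counts in control and 11, 11 and 17 in CIH, or 0.376 ± 0.125 against 0.666 ± 0.174 CPM (SD, n = 3 each). The CIH libraries of Gal lay above the controls, as in 3.05% of all genes tested, with a log2 fold change of 0.82 (SE 0.42), but Gal did not pass the edgeR test over all genes (adjusted p = 1.00). Galr3, the remaining galanin receptor gene, had 1 to 9 counts per library.

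**Figure D2:**
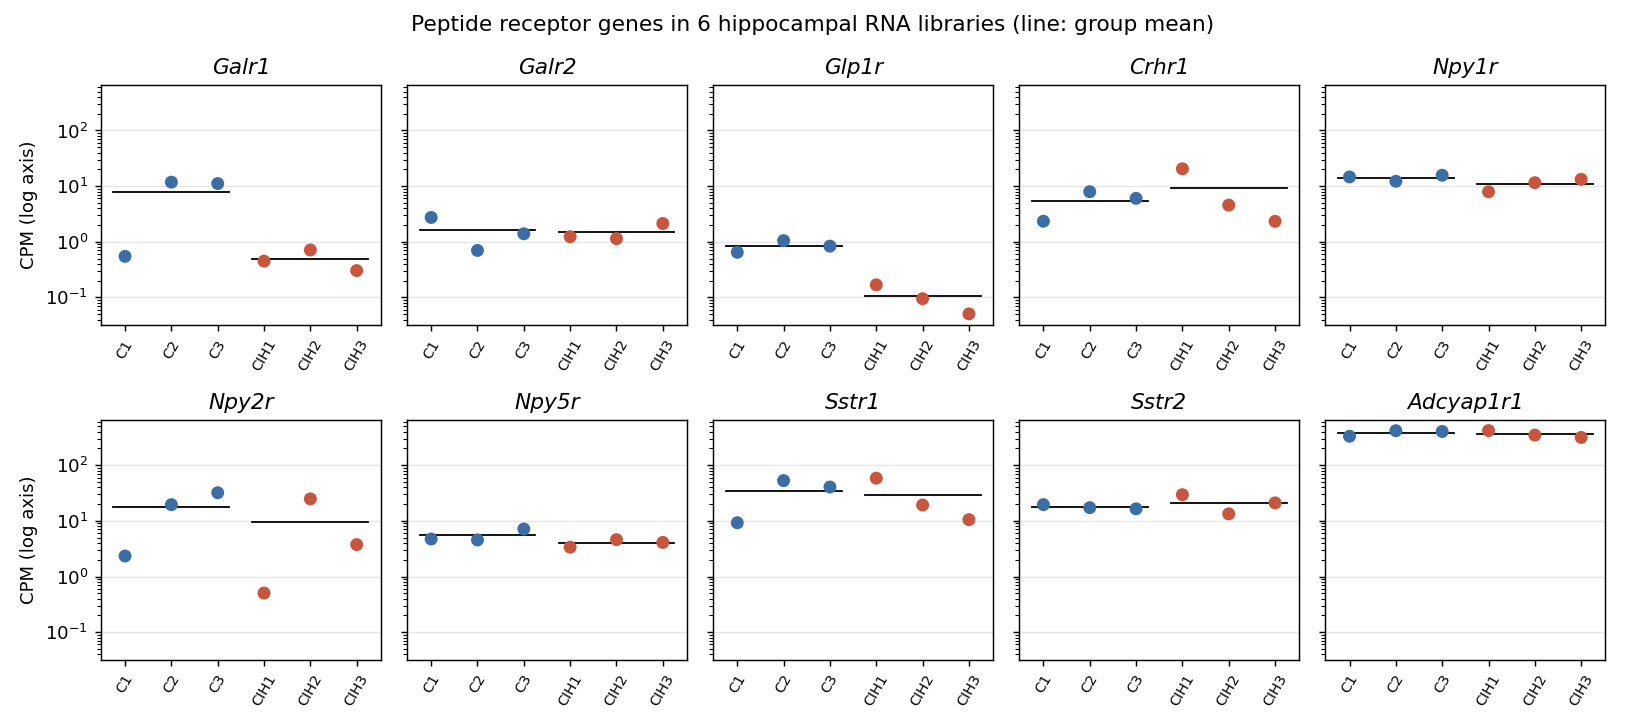
CPM (counts scaled to the library total, log axis) of the 10 receptor genes in control replicates 1 to 3 (C1 to C3, blue) and CIH replicates 1 to 3 (red), with a line at each group mean. Galr1 is low in control replicate 1 and in all CIH libraries, and Glp1r is the only gene whose groups do not overlap.

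Glp1r (gene ID 25051), the receptor for the incretin peptide made from proglucagon, had 13, 21 and 18 counts in control and 3, 2 and 1 in CIH. Every control library stood above every CIH library, at 0.646, 1.05 and 0.834 CPM against 0.168, 0.0948 and 0.0506 CPM. All 3 CIH libraries lay at or under the limit of 3 counts that a count of 0 allows. Summed over libraries there were 52 counts in control and 6 in CIH, a ratio of CIH to control of 0.121 (exact 95% interval 0.0426 to 0.282, counting error only). The fitted log2 fold change was -2.96 (SE 0.50) and depends on the prior count at such depths. Groups did not overlap with CIH lower in 2.65% of all genes tested, and Glp1r was the 1 receptor of the 10 among them. Since Glp1r was chosen for this difference, nothing is read from that count.

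Unlike Galr1, Glp1r was not low in control replicate 1. The genes most like Glp1r among 16375 compared were LOC108350558 at a root mean square difference of 0.27, LOC108351211 at 0.44, LOC108349748 at 0.46 and Wbp11l1 at 0.49 on the log2 scale. The first 3 are uncharacterised loci, and Wbp11l1 is a near copy of Wbp11, a splicing factor gene, with which it may share reads (not tested). The ligand gene Gcg was not in the table. Of the nearest relatives of Glp1r, the incretin receptor gene Gipr had 63, 119 and 53 counts in control and 143, 70 and 99 in CIH, and a log2 fold change of 0.50 (SE 0.44). Glp2r had 3, 3 and 4 counts in control and 2, 1 and 1 in CIH, and Gcgr 0 to 2 counts per library, too few to detect a difference at this depth.

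The neuropeptide Y receptors showed different patterns. Npy2r (gene ID 66024), the Gi/o-coupled receptor known as a presynaptic brake on glutamate release, had 47, 392 and 691 counts in control and 9, 524 and 74 in CIH. High and low libraries occurred in both groups, from 0.504 CPM in CIH replicate 1 to 32.0 CPM in control replicate 3, a ratio of 63.5. The highest library was at least 10 times the lowest in 2.60% of all genes tested, and in Npy2r, Galr1 and Glp1r among the 10 receptors. The group means of Npy2r were 18.0 ± 14.9 (control) and 9.70 ± 13.2 CPM (CIH; SD, n = 3 each), and the log2 fold change was -0.88 (SE 1.26). Without CIH replicate 2 the value was -3.06, and without control replicate 3 it was -0.17, so single libraries set its size.

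Npy1r (gene ID 29358), a mainly postsynaptic receptor, had 294, 245 and 338 counts in control and 141, 243 and 262 in CIH. Its means were 14.2 ± 1.76 and 10.9 ± 2.73 CPM (SD, n = 3 each), and the log2 fold change was -0.38 (SE 0.21). Npy5r (gene ID 25340) had 95, 91 and 154 counts in control and 60, 97 and 81 in CIH, with means of 5.47 ± 1.45 and 4.02 ± 0.622 CPM and a log2 fold change of -0.44 (SE 0.25). Both genes were lowest in CIH replicate 1 and highest in control replicate 3, and in both the groups overlapped. In the reference the pair lies on chromosome 16 on opposite strands, with 8167 bases between the promoter windows. The ligand gene Npy had 275, 105 and 243 counts in control and 47, 146 and 180 in CIH, lowest in CIH replicate 1 as well, with a log2 fold change of -0.69 (SE 0.50).

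Of the somatostatin receptors, Sstr1 (gene ID 25033) had 186, 1060 and 875 counts in control and 1044, 406 and 208 in CIH. Control replicates 2 and 3 and CIH replicate 1 were high, while control replicate 1 and CIH replicate 3 were low, at 9.24 and 10.5 CPM against 40.6 to 58.5 CPM in the high libraries. The means were 34.2 ± 22.5 and 29.4 ± 25.6 CPM (SD, n = 3 each), and the log2 fold change was -0.22 (SE 0.77). With a score of 8 dentate granule genes as a covariate it was -1.46 (SE 0.30; edgeR adjusted p = 0.513), and it was above 0 when control replicate 2 (0.23), CIH replicate 2 (0.0070) or CIH replicate 3 (0.18) was left out. Sstr2 (gene ID 54305), an abundant Gi/o-coupled receptor, had 394, 346 and 355 counts in control and 526, 282 and 416 in CIH, and a log2 fold change of 0.26 (SE 0.27), or -0.05 without CIH replicate 1. Sstr2 counts were not whole in 4 libraries, and in the reference the gene Slc39a11 overlaps it, so its level is uncertain. The ligand gene Sst had 824, 1395 and 1375 counts in control and 873, 822 and 795 in CIH, so that control replicate 1 again lay with the CIH libraries, with a log2 fold change of -0.44 (SE 0.21). Sstr3 and Sstr4 had log2 fold changes of -0.04 (SE 0.31) and 0.02 (SE 0.31).

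Crhr1 (gene ID 58959), the main receptor for the stress peptide corticotropin-releasing hormone, had 47, 159 and 130 counts in control and 365, 96 and 46 in CIH. The highest library was CIH replicate 1, at 20.5 CPM, and CIH replicate 3 and control replicate 1 were the lowest at 2.33 CPM each. The means were 5.43 ± 2.85 and 9.11 ± 9.89 CPM (SD, n = 3 each), and the log2 fold change was 0.74 (SE 0.82), which became -0.66 without CIH replicate 1. CIH replicate 1 also had the highest score of 9 cortical marker genes, 8 of them measured, at 0.86 on the log2 scale against -0.28 to 0.04 in the other libraries, and the lowest score of 8 dentate granule genes, at -1.03 against -0.12 to 0.72. It was also highest in scores of striatal (0.55), thalamic and habenular (0.44), endothelial and pericyte (0.47) and erythroid (0.64) genes. The same library was lowest in CA pyramidal (-0.60) and choroid plexus (-0.97) genes. With the dentate score as a covariate the log2 fold change of Crhr1 was -0.91. The part of these lists in the Crhr1 value was not tested. Crhr2, the second receptor of this family, had 14, 99 and 41 counts in control and 89, 16 and 5 in CIH, low in control replicate 1 and CIH replicate 3 like Crhr1. The ligand gene Crh had 9 to 21 counts per library, and Crhbp, which encodes the binding protein of the peptide, had a log2 fold change of 0.01 (SE 0.21).

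Adcyap1r1 had 6677, 8353 and 8707 counts in control and 7477, 7331 and 6239 in CIH, and varied least of the 10 receptors, with a ratio of highest to lowest library of 1.33. Its means were 384 ± 45.8 (control) and 361 ± 53.0 CPM (CIH; SD, n = 3 each), and the log2 fold change was -0.09 (SE 0.15). CIH replicate 1 was its highest library in CPM, at 419, while in TPM the same library stood at 258.40, second lowest of the 6. The deposited TPM ordered the libraries differently from the counts, with a CIH mean of 270 ± 42.4 TPM against the control 359 ± 79.5 TPM (SD, n = 3 each). The cause of that disagreement was not tested. The gene Adcyap1, which encodes PACAP, had 164, 289 and 174 counts in control and 571, 99 and 170 in CIH, highest in CIH replicate 1. Of the other receptors of PACAP and VIP, the log2 fold change was 0.14 (SE 0.27) for Vipr1 and 0.39 (SE 0.21) for Vipr2.

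Over all genes, the edgeR quasi-likelihood test called 0 of 17935 genes after Benjamini-Hochberg adjustment (0%), and therefore 0 of the 10 receptors (adjusted p = 1.00 for each). Without adjustment, 319 genes (1.78%) had p under 0.05, among them Galr1 and Glp1r. DESeq2 called 10 of 26904 genes, or 0.0372%, including Galr1 (adjusted p = 0.00887) though its groups overlapped, and not Glp1r (adjusted p = 0.535). Of the 10 receptors 8 were lower and 2 higher in CIH, with a median log2 fold change of -0.30, against 0.00 over all genes tested, of which 8859 were lower and 9076 higher. Because the set was chosen on this contrast, its median supports nothing.

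**Figure D3:**
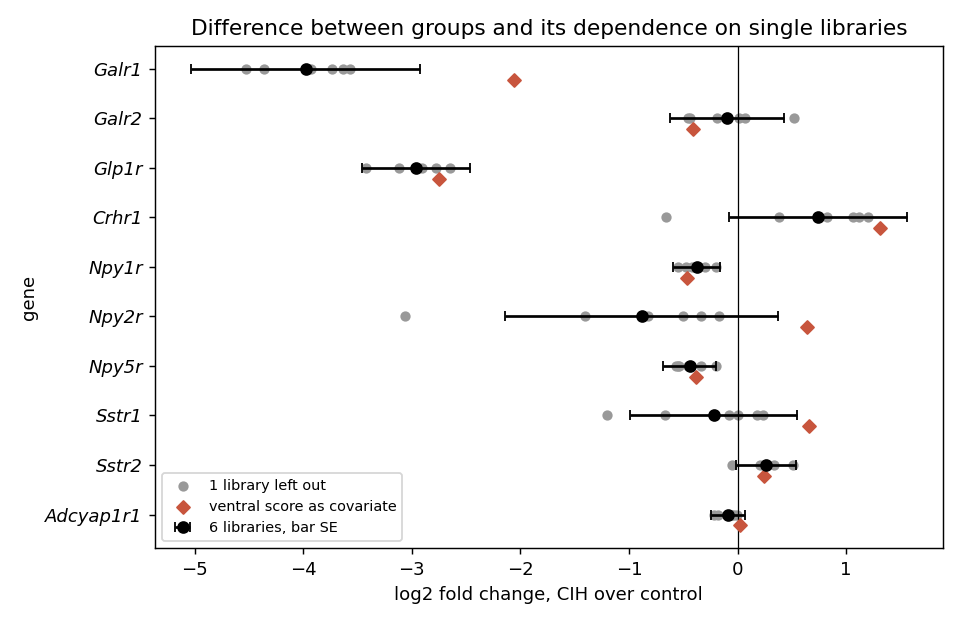
Log2 fold change of each receptor gene, CIH over control, in edgeR with 6 libraries (black, bar SE), with 1 library left out in turn (grey) and with the ventral hippocampus score as a covariate (red diamond). Galr1, Glp1r, Npy1r and Npy5r stay below 0 in all fits drawn, while Galr2, Crhr1, Npy2r, Sstr1, Sstr2 and Adcyap1r1 cross 0 in at least 1 of them. Galr1 and Glp1r were chosen for few counts in CIH.

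The pattern of Galr1 was next set beside markers of the ventral hippocampus, the pole linked to anxiety and stress. The list held Dcn, Gpc3, Htr2c, Nr2f2, Trhr, Grp and Crym, of which Trhr is also in the list of other peptide receptors. Control replicates 2 and 3 both stood above control replicate 1 and CIH replicate 3 in 7 of these 7 genes, in 6 of the 10 receptors and in 28.4% of all genes tested. This pattern was chosen after seeing the values. Htr2c, a serotonin receptor gene, had 312, 3188 and 3465 counts in control and 1485, 1363 and 387 in CIH, and the transcription factor gene Nr2f2 had 282, 2373 and 2148 counts in control against 809, 1131 and 238 in CIH. The list score, the mean centred log2 CPM, was -1.12, 1.06 and 1.00 in control replicates 1, 2 and 3 and 0.16, -0.12 and -0.97 in CIH replicates 1, 2 and 3. Wfs1, a marker strongest in dorsal CA1, ran the other way, with 15780, 5080 and 2128 counts in control and 9365, 6409 and 14161 in CIH. It was picked from a list of 12 CA pyramidal genes. Over the controls and CIH replicate 3, Pou3f1, Rgs14, Bok and Nos1ap of that list ran like Wfs1 in CPM. Fibcd1, Mpped1, Grik4 and Amigo2 instead had control replicates 2 and 3 above control replicate 1 and CIH replicate 3, like the ventral markers. Iyd, at 0 to 4 counts, did the same.

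An alternative added with the data in view used the ventral score as a covariate. With it the log2 fold change of Galr1 was -2.06 (SE 0.45) in place of -3.98, and that of Glp1r was -2.75 (SE 0.49) in place of -2.96. The score holds Trhr, 1 of the 4 genes most like Galr1, so it is not independent of the Galr1 values. Npy2r turned from -0.88 to 0.64, Sstr1 from -0.22 to 0.66 and Adcyap1r1 from -0.09 to 0.02, and Crhr1 moved from 0.74 to 1.31. By edgeR no receptor was called in that fit (adjusted p = 1.00 for each). The dentate score as a covariate moved Galr1 and Glp1r the other way, to -4.73 (SE 1.07; edgeR adjusted p = 0.527) and -3.53 (SE 0.50; adjusted p = 0.440). The ventral scores were -1.12, 1.06 and 1.00 in control replicates 1, 2 and 3, with 11, 236 and 240 counts of Galr1. In CIH replicates 1, 2 and 3 they were 0.16, -0.12 and -0.97, with 8, 15 and 6 counts. The part of region in the Galr1 values was not tested. The labels do not say which part of the hippocampus was taken.

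**Figure D4:**
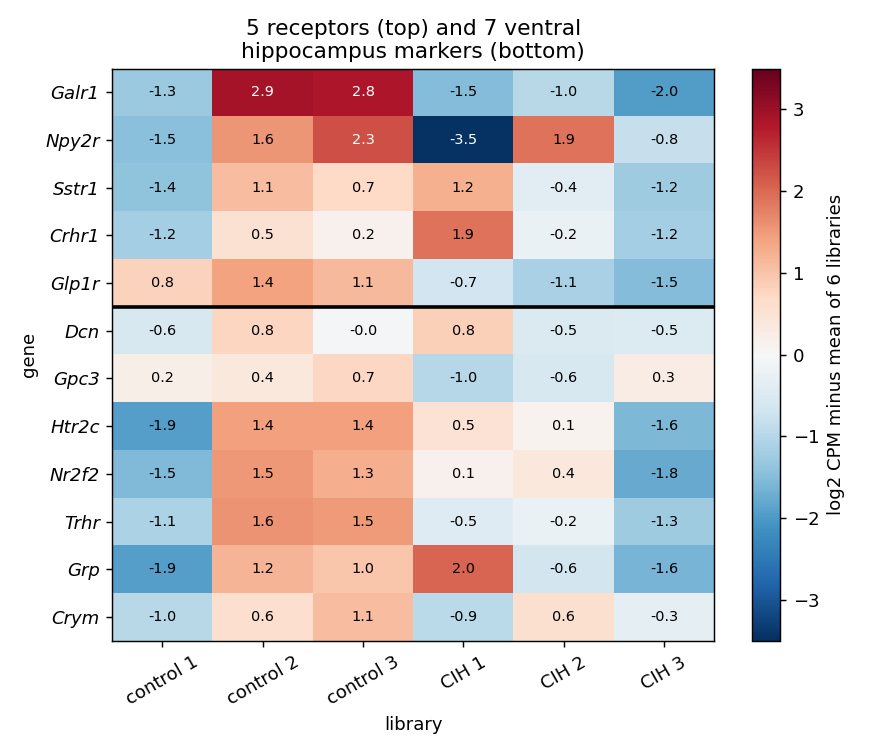
Log2 CPM minus the mean of the 6 libraries, for 5 receptor genes (top) and 7 ventral hippocampus markers (bottom), with libraries in columns. Control replicates 2 and 3 are high and control replicate 1 and CIH replicate 3 low in Galr1, Npy2r, Sstr1 and most markers, while Glp1r separates the groups.

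A list of other peptide receptors was read for the same difference among the controls. Of its 38 genes 29 were tested, 8 higher and 21 lower in CIH, 0 of them called, with a median log2 fold change of -0.31. Among the 29, 12 stood at least 2 times higher in control replicate 2 than in control replicate 1, as did 4 of the 10 receptors and 6.24% of all genes tested. In control replicate 3, 8 of the 29 stood at least 2 times above control replicate 1, against 4 of the 10 receptors and 4.66% of all genes. Both controls did so in 8 of the 29, in 4 of the 10 and in 3.42% of all genes. The share among the other receptors was thus above that of all genes, though most of them did not show this difference. The direction was taken from the Galr1 values, and the list holds Trhr, 1 of the 4 genes most like Galr1. The CIH libraries do not enter the count, but the 10 receptors were chosen on CIH against control. The genes were not matched for spread between libraries, so the shares are a description. The oxytocin receptor gene Oxtr had 31, 312 and 283 counts in control and 159, 152 and 35 in CIH. The nociceptin receptor gene Oprl1 had 204, 1074 and 1121 counts in control against 1038, 742 and 255 in CIH. Both were chosen after their values were seen, and both were low in control replicate 1 and CIH replicate 3.

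Groups did not overlap for 3 of the 29, each lower in CIH, against 2.65% of all genes tested. The relaxin-3 receptor gene Rxfp3 had 33, 102 and 125 counts in control and 15, 32 and 11 in CIH, and a log2 fold change of -2.09 (SE 0.57). The substance P receptor gene Tacr1 had 130, 205 and 278 counts in control and 79, 129 and 77 in CIH, and a log2 fold change of -1.03 (SE 0.30). The vasopressin receptor gene Avpr1a had 20, 20 and 21 counts in control and 4, 11 and 15 in CIH, and a log2 fold change of -0.96 (SE 0.44). The edgeR test called none of these (adjusted p = 1.00 for each).

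Of 15 genes for ligands and a binding protein, 13 were measured and 8 tested, 4 higher and 4 lower in CIH, 0 called, with a median log2 fold change of -0.09. Adcyap1 stood at 0.56 (SE 0.68), Cort at 0.43 (SE 0.33) and Vip at -0.19 (SE 0.26). Galp, Spx, Ucn, Ucn2 and Pyy had at most 3 counts in any library, too few to detect a difference, and Gcg and Ucn3 were not in the table. Of the 12 remaining receptors of the same families, 10 were measured and 6 tested, 4 higher and 2 lower, 0 called. Among 24 genes for G proteins, potassium channels of the GIRK type, arrestins and kinases downstream of these receptors, 12 were higher and 12 lower, 0 called, with a median of 0.00.

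Library totals ran from 17170943 to 21941173 estimated counts, and every pair of libraries differed beyond sampling noise (chi-square per degree of freedom of 6.98 or more). Hippocampal markers were present in all libraries, with Neurod6 at 1210 to 2854 counts and the dentate gene Prox1 at 515 to 8448 counts. The interneuron list had 11 of 12 genes lower in CIH, 0 called, with scores of 0.29 and 0.31 in control replicates 2 and 3 and -0.29 to -0.04 in the other 4 libraries. Choroid plexus genes scored 1.17 in control replicate 1 and -0.97 in CIH replicate 1, with 6 of 6 genes lower in CIH and the defining gene Ttr at 5 to 315 counts. Endothelial and pericyte genes were higher in CIH in 10 of 10, 4 of them without overlap of the groups (3.05% of all genes), with scores of -0.16 to -0.067 in control and 0.47, -0.040 and -0.057 in CIH replicates 1, 2 and 3. Of the dentate granule genes 7 of 7 were lower in CIH, 1 without overlap (2.65% of all genes). Of the erythroid genes 5 of 5 were higher, 1 without overlap (3.05% of all genes). The interneuron list held 1 lower and 1 higher gene without overlap (2.65% and 3.05% of all genes). The cortical list held 1 higher such gene and the thalamic and habenular list 1 lower. Calb2, which is in both lists, was the lower gene of the interneuron list and of the thalamic and habenular list. The cortical list had 7 of 8 genes higher, the thalamic and habenular list 5 of 6, the CA pyramidal list 7 of 11 and the striatal list 3 of 7, and a list for hypothalamus, septum and amygdala had 1 of 5. In each of these lists 0 genes were called. The part of these lists in the receptor values was not tested.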

How the data were processed

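RNA of rat hippocampus was sequenced on a BGI platform, per the labels. HISAT2 2.2.0, RSEM 1.2.12, Bowtie2 2.2.5 and the build Rnor_6.0 appear in the submitters' processing notes, without their roles. Strand use and annotation were not given in the sources used here. Per the file headers, the deposited table gives estimated counts, TPM and FPKM made by the authors. The estimated counts, not whole in 16.0% of values, were rounded to whole numbers. The authors' TPM served for levels per length and for limma with a pseudocount of 1 or 0.1, and the authors' FPKM for 1 alternative. The small RNA table was not used here.

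Samples were grouped by title. The 6 libraries were fitted with edgeR 4.0.16 in R 4.3.3 (quasi-likelihood F test, TMM, filterByExpr, Benjamini-Hochberg adjustment over 17935 genes, threshold 0.05), tested on simulated data first. The SE was derived from the log2 fold change and the F statistic, and log2 CPM used a prior count of 2. Counting intervals are exact (Clopper-Pearson) at 95%. Alternatives were RLE normalization, no filter, DESeq2 1.42.0, limma 3.58.1, covariates, the replicate block and leaving out each library.

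The genes named are the 10 receptors, the ligand and receptor family lists, other peptide receptors with groups that do not overlap and a mean count of at least 10, and the 4 genes most like Galr1 and Glp1r with a mean log2 CPM above 0. Other genes were picked with their values in view. The receptors and lists were chosen with earlier results of these data known. Plots were made in Python 3.11.15 (matplotlib 3.10.9).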

Additional observations from a re-analysis of the deposited data

How the results depend on the processing

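With edgeR on 6 libraries, 0 genes and 0 of the 10 receptors passed the threshold, and this held with RLE normalization, no filter, the dentate or ventral score as a covariate and the replicate block (0 genes). DESeq2 called 10 genes, 1 of them a receptor (Galr1, -4.00). Limma on log2(TPM + 1) and on log2(TPM + 0.1) called 1 gene each, NEWGENE_1306267. Leaving out 1 library gave 0 to 1 genes (Wbp11 without control replicate 3, Wbp11l1 without CIH replicate 2) and 0 receptors. Galr1 had adjusted p = 0.0934 in edgeR without control replicate 1. Neighbouring pairs in the order of control TPM that did not overlap numbered 2, also with FPKM, and 2 to 5 without 1 control library. The sign of Galr2 turned in limma (0.0091 and 0.058), with the replicate block (0.043), with the dentate score (0.48) and when control replicate 1 (0.52) was left out or either of CIH replicates 1 (0.015) and 2 (0.066), and went as low as -0.46 without control replicate 2. Crhr1 turned with the dentate score (-0.91) and without CIH replicate 1 (-0.66; highest 1.198 without CIH replicate 3), and Sstr2 without CIH replicate 1 (-0.050; highest 0.51 without CIH replicate 2). Sstr1 was -1.46 with the dentate score, ran from -1.21 without CIH replicate 1 to 0.23 without control replicate 2, and was also above 0 without CIH replicate 2 (0.0070) or 3 (0.18). With the ventral score, chosen after seeing the data, Npy2r (0.64), Sstr1 (0.66) and Adcyap1r1 (0.019) turned. The log2 fold changes of Galr1 and Glp1r kept their sign in each alternative, from -2.02 and -0.54 in limma with a pseudocount of 1 to -4.73 and -3.53 with the dentate score. Both genes were chosen for few counts in CIH, so the kept sign supports nothing. The Glp1r groups did not overlap, so leaving out 1 library could not turn its sign. At 0.06 to 0.75 TPM, Glp1r lies under a pseudocount of 1, which shrinks its log2 fold change. With a pseudocount of 0.1 the limma value of Glp1r was -1.83. What else lies behind the shifts between settings (the cause) was not tested. The labels do not say that the replicate numbers pair samples. Deviations of same-numbered libraries from their group means correlated at -0.22, -0.05 and -0.18. With 3 libraries per group these values cannot settle if the numbers pair them. The replicate block changed no call. Depth limits Glp1r, with 1 to 3 counts in each CIH library.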
